A study of Bos taurus with 9 samples.

Results

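Genes for iron storage, uptake and export were followed in RNA-seq data from 3D-cultured bovine uterine glands. The 10 genes were FTH1, FTL, TFRC, MELTF, SLC39A14, SLC40A1, SLC11A2, IREB2, NCOA4 and LTF, taken by symbol from the 20679 genes in the files. All 10 passed the filter on low counts in every comparison. They were picked as a set while differences between cysts and EGF-treated structures were already known, MELTF having been seen as the strongest increase among the 10. Their values in that comparison are therefore given as a description. No p-value is printed for them there, whether a gene passed the threshold is stated only to describe it, and the numbers of genes that passed the threshold are not evidence about the set.

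Uterine gland fragments from Bos taurus were embedded in Matrigel and kept there for 5 days in culture medium. The 3 libraries of the CYST group came from cultures without EGF, which formed cysts. The 3 libraries of the MAT group came from cultures with EGF, which formed tubular UG-LIKE structures, and the 3 libraries of the MAT + COL group came from cultures with EGF in Matrigel that also held type I collagen. No group had collagen I without EGF. Transferrin, the iron carrier of blood plasma, was in the medium of every group, together with ascorbic acid, sodium selenite, insulin and bovine serum albumin. The uteri came from an abattoir and were at a luteal stage, and gland fragments were picked under a stereomicroscope. Replicates carry the numbers 1 to 3 within each group, and the labels do not say which cultures shared an animal. The paper reports that samples of MAT and MAT + COL clustered mainly by individual.

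Cells take up iron bound to transferrin through the transferrin receptor, and metal transporters move it into the cytosol. Iron that is not used at once is stored inside ferritin, a shell built of heavy and light chains, and leaves the cell through a single known exporter, ferroportin. Iron regulatory proteins adjust this balance after transcription, by binding the messages of ferritin, ferroportin and the transferrin receptor. For ferritin and ferroportin, the amount of message and the amount of protein can thereby move apart. Uterine glands are also known to secrete iron-binding proteins into the uterine lumen.

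The total count per library was 6568968 to 17948600. The labelled cell type is epithelial, and EPCAM, KRT8 and KRT19 were abundant in all groups, with EPCAM at 419.4 ± 27.8 TPM (SD, n = 3) in CYST. FOXA2, a transcription factor of uterine glands, was low, at 2.62 ± 1.92 TPM (SD, n = 3) in CYST and 5.53 ± 5.97 TPM (SD, n = 3) in MAT. The summed TPM of the 6 epithelial markers was 16649 to 18423 in CYST, 27613 to 43306 in MAT and 28181 to 38520 in MAT + COL. That of 7 stromal fibroblast markers was 1986 to 4486, 738.5 to 2946 and 1870 to 3439, so that stromal RNA was present in every group and the ranges overlapped. Gene by gene, however, all 7 stromal markers were at a lower level in MAT than in CYST (median Log2FC -0.71, 1 called with the replicate number as a block). All 6 epithelial markers were at a higher level (median Log2FC 0.79, 3 called with the block). With the block, 5.67% of all genes tested were called lower and 4.9% higher. Of the red blood cell markers, HBB was at 0 counts in all 9 libraries. HBM and AHSP had at most 6 and 12 counts in any library. The summed TPM of these markers was 0 to 0.371 in CYST, 0.489 to 0.921 in MAT and 1.10 to 2.86 in MAT + COL. In such bulk samples, fewer cells of a type and less RNA per cell cannot be told apart, and the part of these markers in the results below was not tested.

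Symbols and positions did not match for 2 of the 10 genes. The row named FTL (ENSBTAG00000038430) lies on chromosome 23 from 34453592 to 34454574 of ARS-UCD2.0, where RefSeq places a gene called LOC788801. RefSeq has FTL itself on chromosome 18 from 55538469 to 55540367, and the files hold a row without a symbol there (ENSBTAG00000013343, from 55536636 to 55540367). In the same way, the row named SLC11A2 (ENSBTAG00000032902) lies on chromosome 5 from 28846446 to 28868817, where RefSeq has LOC512464. The RefSeq position of SLC11A2, from 28722064 to 28757980 on chromosome 5, is covered by another row without a symbol (ENSBTAG00000032914). Both rows are given for each of these genes. How reads that align to more than 1 place were counted is not stated in the sources used here, so counts could be split between similar rows.

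The row at the RefSeq position of FTL was far more abundant than the row that carries the symbol. It had 7287, 9025 and 9541 TPM in CYST replicates 1 to 3, 8617, 9095 and 8196 in MAT, and 9321, 8999 and 8130 in MAT + COL. The row named FTL had 171.7, 238.7 and 264.5 TPM in CYST, 242.0, 230.6 and 249.7 in MAT, and 241.7, 254.5 and 253.6 in MAT + COL. The groups overlapped for both rows. In counts, the first row exceeded the second by a factor of 37.3 to 49.3 in each library, a ratio that varied little over the 9 libraries.

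**Figure D1:**
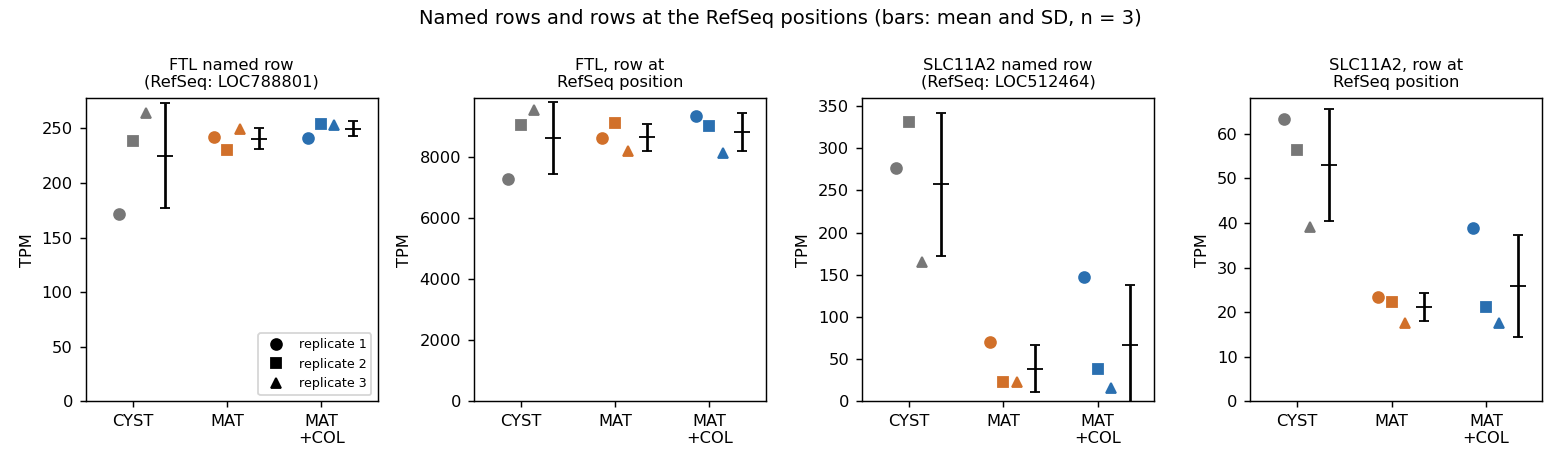
TPM (y axis, from 0) of the rows that carry the symbols FTL and SLC11A2 and of the unnamed rows at their RefSeq positions, for the 3 groups (x axis). Points are libraries, shaped by replicate number, and black bars are the mean and SD (n = 3), cut at 0. The FTL rows differ in level (8617 against 225.0 TPM on average in CYST) and overlap across groups, whereas both SLC11A2 rows are highest in CYST.

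Ferritin heavy chain, the subunit with ferroxidase activity that oxidizes iron for storage, was among the most abundant messages of the cultures. FTH1 (ENSBTAG00000011184, chromosome 29 from 40477533 to 40484508, minus strand) had 35940, 34114 and 120094 TPM in CYST replicates 1 to 3. It had 63114, 71123 and 101620 TPM in MAT and 48407, 77288 and 78195 TPM in MAT + COL. CYST replicate 3 was the highest of all 9 libraries, whereas the other CYST libraries were the lowest, so that the CYST group spanned both of the others. FTH1 was the most abundant gene in 7 of the 9 libraries, and in CYST replicates 1 and 2 it came after GRP, which encodes gastrin-releasing peptide.

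Reads on FTH1 made up 1.64%, 1.51% and 5.98% of all gene counts in CYST, 2.87%, 3.16% and 4.70% in MAT, and 2.10%, 3.43% and 3.52% in MAT + COL. The means were 3.04% ± 2.54 (SD, n = 3), 3.58% ± 0.982 (SD, n = 3) and 3.02% ± 0.796 (SD, n = 3). The exact 95% binomial intervals of these shares were at most 0.0295 percentage points wide and cover counting error only. Without CYST replicate 3 the mean share in CYST was 1.58%.

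The Log2FC of FTH1 in MAT over CYST was 0.20 (standard error 0.56), and it was not significantly different. With the replicate number as a block it was 0.54 (standard error 0.31), which did not pass the threshold either. When 1 library was left out at a time, the Log2FC without the block ranged from -0.10 (without CYST replicate 2) to 1.27 (without CYST replicate 3). Within same-numbered libraries, log2 CPM was higher in MAT by 0.88 for replicate 1 and by 1.18 for replicate 2, and it was different by -0.34 for replicate 3. The direction therefore differed between the replicate numbers.

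The light chain helps iron form a mineral core. Both FTL rows varied less between libraries than FTH1 and, like FTH1, were highest in replicate 3 of CYST. The row at the RefSeq position of FTL had a Log2FC of -0.03 (standard error 0.21) in MAT over CYST, and the row named FTL had 0.06 (standard error 0.24). The ratio of FTH1 to the FTL row at the RefSeq position, both in TPM, was 4.93, 3.78 and 12.6 in CYST, 7.32, 7.82 and 12.4 in MAT, and 5.19, 8.59 and 9.62 in MAT + COL. Replicate 3 had the highest ratio in every group.

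**Figure D2:**
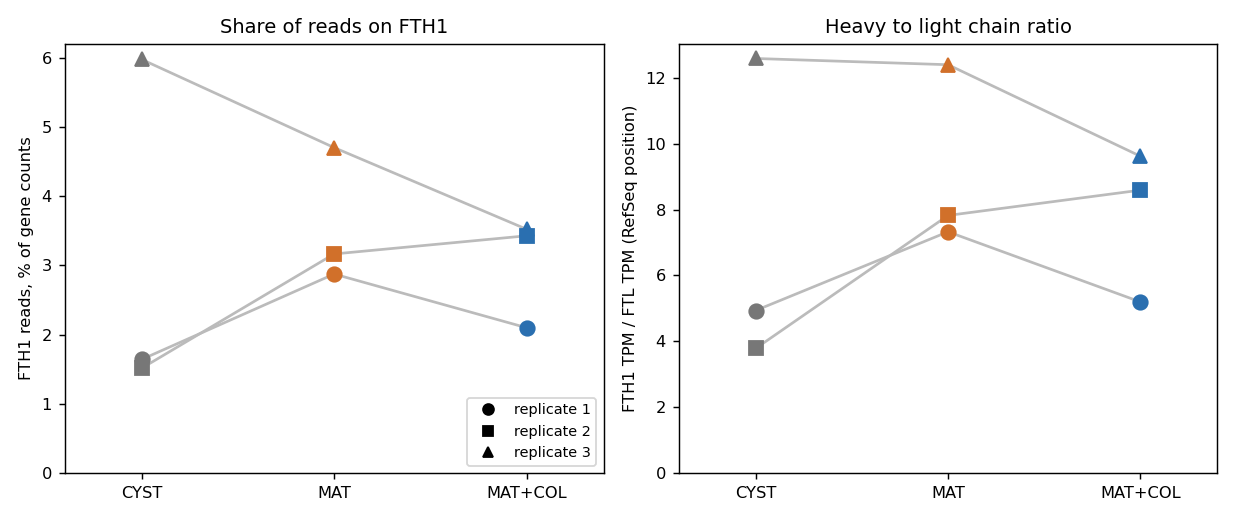
Reads on FTH1 in percent of all gene counts (left, y axis) and the ratio of FTH1 to FTL in TPM, with FTL taken at its RefSeq position (right, y axis), in the 3 groups (x axis). Points are libraries and grey lines join the same replicate number. CYST replicates 1 and 2 lie lowest, at 1.64% and 1.51%, and CYST replicate 3 lies highest, at 5.98%.

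Within the 10 genes, MELTF and the genes for iron uptake differed most between cysts and UG-LIKE structures. TFRC, SLC39A14 and SLC11A2 fell and MELTF rose in MAT compared with CYST (adjusted p under 0.05 in edgeR's quasi-likelihood test over all genes, with or without the replicate block), and DESeq2 called the same number. Thus 1 of the 10 genes was higher and 3 were lower, where 0.845% of the 12074 genes tested were called higher and 0.944% lower, or 1.79% in all. With the block, 4.9% were called higher and 5.67% lower, or 10.6% in all, and DESeq2 also called 10.6%. The 4 genes met the criteria for DEGs as well, a Log2FC beyond 1 and a TPM above 1 in all 6 libraries, which 1.45% of all genes did without the block and 6.01% with it. Their groups did not overlap in TPM, as for 23.7% of all genes. Because the genes were chosen with this comparison known, nothing is read from these shares. The median Log2FC of the 10 genes was -0.04, against 0.01 over all genes tested.

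TFRC (ENSBTAG00000032719, chromosome 1 from 70652654 to 70695272) encodes transferrin receptor 1, through which dividing cells in particular take up transferrin-bound iron. Its TPM was 249.7, 168.0 and 157.7 in CYST, 96.2, 81.9 and 69.8 in MAT, and 153.6, 96.1 and 66.0 in MAT + COL. All MAT and MAT + COL libraries were below all CYST libraries, MAT + COL replicate 1 by the narrowest margin. The Log2FC in MAT over CYST was -1.22 (standard error 0.22), and same-numbered libraries were different by -1.31, -0.91 and -1.28 in log2 CPM.

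SLC11A2 encodes DMT1, the proton-coupled transporter that carries ferrous iron out of endosomes and, in the gut, into the cell. The row named SLC11A2 had 276.0, 331.4 and 164.9 TPM in CYST, 70.6, 22.7 and 22.9 in MAT, and 147.2, 37.9 and 16.3 in MAT + COL. The row at the RefSeq position had 63.4, 56.4 and 39.0 TPM in CYST, 23.4, 22.3 and 17.5 in MAT, and 38.8, 21.1 and 17.6 in MAT + COL. Neither row of CYST overlapped with the other groups, and replicate 1 was highest within MAT and MAT + COL for both rows. The margin was small for the row at the RefSeq position, where MAT + COL replicate 1 lay just under CYST replicate 3.

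The Log2FC in MAT over CYST was -2.73 (standard error 0.46) for the row named SLC11A2 and -1.33 (standard error 0.19) for the row at the RefSeq position, which also had an adjusted p under 0.05 in edgeR. The TPM of the named row was 4.82 ± 0.916 times (SD, n = 3) that of the other row in CYST, 1.78 ± 1.08 times (SD, n = 3) in MAT and 2.17 ± 1.47 times (SD, n = 3) in MAT + COL. The size of the decrease thus depended on which row was taken, and its direction did not.

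SLC39A14 (ENSBTAG00000019225, chromosome 8 from 69663882 to 69731756) encodes ZIP14, a transporter of manganese, zinc and iron that is not bound to transferrin. It was scarce, at 14.5, 11.9 and 8.66 TPM in CYST, 1.94, 2.30 and 2.74 in MAT, and 2.98, 4.13 and 3.73 in MAT + COL. The 3 groups did not overlap at any point, with MAT lowest. The Log2FC in MAT over CYST was -2.31 (standard error 0.29), and the counts behind it were 222 to 458 per library in CYST and 30 to 95 in MAT. Its row overlaps with PIWIL2, which was at 0 counts in all libraries.

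MELTF (ENSBTAG00000002998, chromosome 1 from 71475841 to 71500659) encodes melanotransferrin, a relative of transferrin that is anchored to the cell surface and binds iron, although its part in iron uptake is regarded as minor. Its TPM was 4.12, 5.80 and 4.88 in CYST, 33.6, 57.1 and 60.1 in MAT, and 23.8, 39.5 and 62.7 in MAT + COL. Every EGF-treated library was several times higher than every CYST library. Same-numbered libraries of MAT and CYST differed by 3.06, 3.40 and 3.50 in log2 CPM. Relative to its size, this was the most even difference among the 4 genes with SLC11A2 taken by its named row. The SLC11A2 row at the RefSeq position was about as even, at -1.37, -1.21 and -1.26. The Log2FC of MELTF was 3.34 (standard error 0.31).

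When 1 library was left out at a time, the direction of all 4 genes was kept in each of the 6 fits, but the calls were not. MELTF kept an adjusted p under 0.05 in 4 of 6 fits and lost it without CYST replicate 1 or CYST replicate 2, with a Log2FC from 3.16 to 3.62. SLC39A14 kept it without MAT replicate 3 or CYST replicate 3, and the row named SLC11A2 without MAT replicate 1 or CYST replicate 3, so both lost it in the other 4 fits. Their Log2FC ranged from -2.47 to -2.12 and from -3.41 to -2.46. TFRC lost the call in all 6 fits, with a Log2FC from -1.32 to -1.01.

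**Figure D3:**
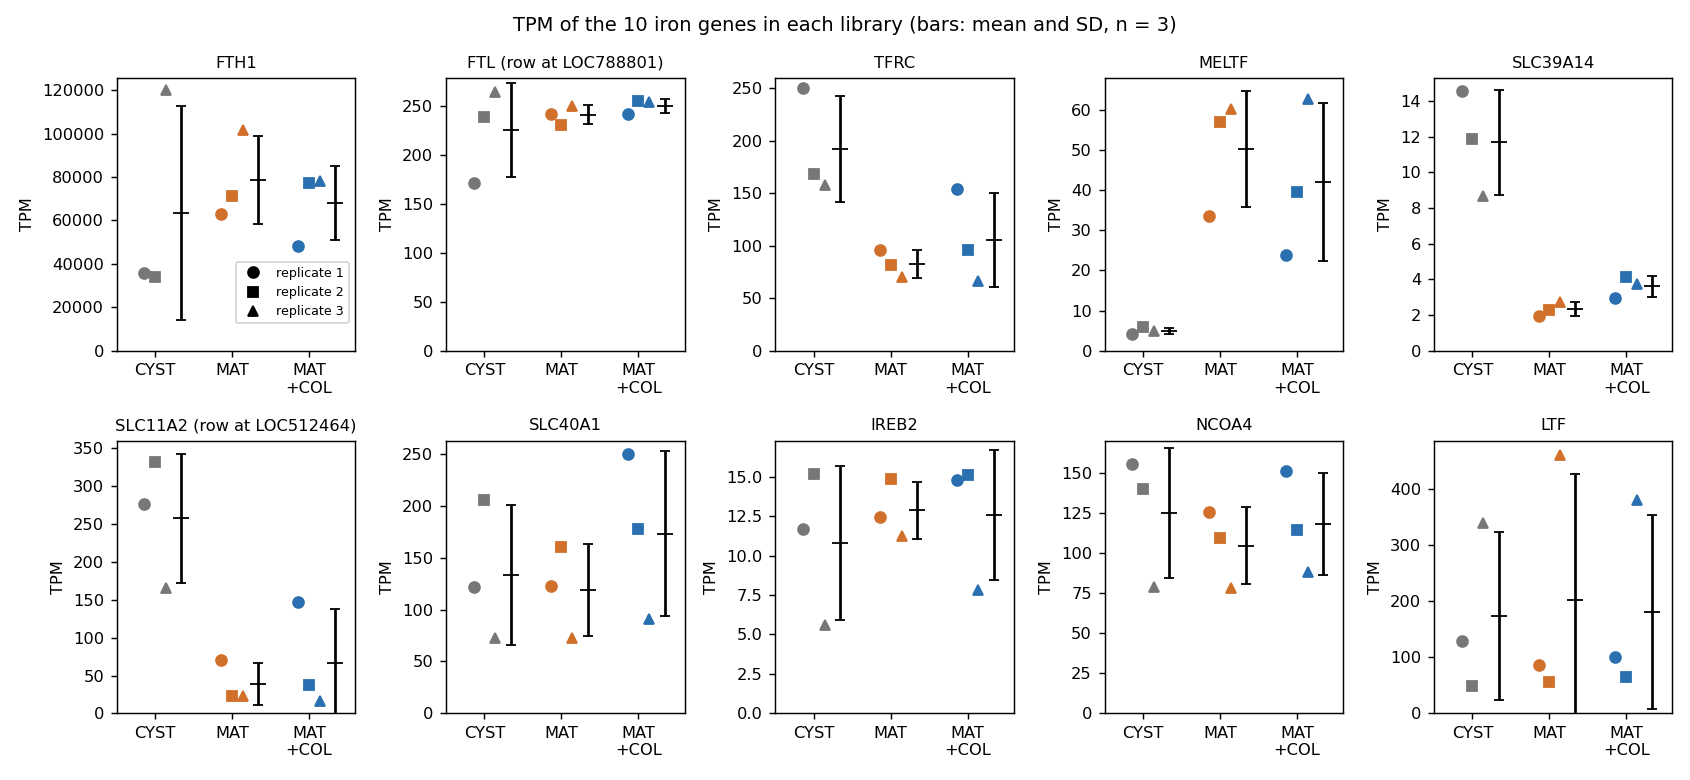
TPM (y axes, from 0, on separate scales) of the 10 genes in the 3 groups (x axes). Points are libraries, shaped by replicate number, and black bars are the mean and SD (n = 3), cut at 0. CYST does not overlap with MAT for TFRC, MELTF, SLC39A14 and SLC11A2, and LTF, NCOA4, TFRC and IREB2 keep the same order of replicate numbers in each group.

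The remaining genes were not significantly different between MAT and CYST, with or without the block. SLC40A1 (ENSBTAG00000010498, chromosome 2 from 6776287 to 6800159) encodes ferroportin, the iron exporter. It had 121.5, 205.4 and 72.6 TPM in CYST, 123.0, 160.4 and 72.4 in MAT, and 250.2, 177.9 and 91.0 in MAT + COL, and the groups overlapped. Its Log2FC in MAT over CYST was -0.14 (standard error 0.36).

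NCOA4 (ENSBTAG00000019565, chromosome 28 from 44036736 to 44059067, where RefSeq also has LOC132344155), the receptor that delivers ferritin to autophagosomes so that its iron can be released, had 155.6, 140.1 and 78.9 TPM in CYST, 125.5, 109.5 and 78.4 in MAT, and 151.4, 114.7 and 88.0 in MAT + COL. The same order of replicates was found in all 3 groups. Its Log2FC was -0.24 (standard error 0.24), and with the replicate number as a block it was -0.24 (standard error 0.15). IREB2 (ENSBTAG00000002504, chromosome 21 from 30828542 to 30881845), which encodes an iron regulatory protein, was scarce, at 11.6, 15.2 and 5.58 TPM in CYST, 12.5, 14.9 and 11.3 in MAT, and 14.8, 15.1 and 7.83 in MAT + COL. Its Log2FC was 0.28 (standard error 0.30).

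LTF (ENSBTAG00000001292, chromosome 22 from 52934900 to 52990568) encodes lactoferrin, an iron-binding protein that glands secrete and that withholds iron from bacteria. Its TPM was 129.7, 49.4 and 339.8 in CYST, 86.6, 56.0 and 461.0 in MAT, and 100.3, 64.0 and 379.6 in MAT + COL. Replicate 3 was the highest and replicate 2 the lowest in every group. The Log2FC in MAT over CYST was 0.12 (standard error 0.94), and with the replicate block, which removes these differences, it was 0.00 (standard error 0.21). Without MAT replicate 3 the Log2FC was -1.43, and without CYST replicate 3 it was 1.28.

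Lactoferrin is also stored by neutrophils, so leukocyte genes are given beside it. S100A8 was likewise highest in replicate 3, with 103.8, 466.1 and 235.3 TPM in CYST, MAT and MAT + COL, against 3.39 to 21.3 TPM in the other 6 libraries. S100A9, the partner of S100A8, was also highest in replicate 3 of every group, at 9.76, 15.6 and 9.37 TPM in CYST, MAT and MAT + COL. PTPRC, which encodes the leukocyte antigen CD45, was at most 1.19 TPM in any library. Unlike LTF, it was lowest in replicate 3 of every group, at 0.406, 0 and 0.122 TPM in CYST, MAT and MAT + COL. Which cells held the LTF message was not tested. The summed TPM of the 6 leukocyte markers was 12.3 to 122.3 in CYST, 15.5 to 484.7 in MAT and 28.1 to 248.5 in MAT + COL, and S100A8 made up most of the highest sums.

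The 10 genes differed in how much they varied with the group and with the replicate number. The group accounted for 94.2% of the sum of squares of log2 CPM over the 9 libraries for SLC39A14, 90.8% for MELTF, 75.7% for TFRC and 69.9% for the row named SLC11A2. The median over 12822 genes was 29.9%. The replicate number accounted for 97.6% for LTF, 88.6% for NCOA4, 72.4% for SLC40A1, 64.8% for IREB2, 60.5% for FTH1 and 60.3% for the row named FTL, where the median over all genes was 32.1%. For the FTL row at the RefSeq position it accounted for 39.3%, and 59.2% lay in neither. Only 0.101% of all genes had a larger share for the replicate number than LTF. The group shares of the first 4 genes come from the comparison they were chosen on.

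Libraries with the same replicate number also deviated together over all genes. The deviations from the group means correlated at 0.31 to 0.41 for the 3 pairs of MAT and CYST, and at 0.47 to 0.67 for the 3 pairs of MAT + COL and MAT. In replicate 3, FTH1 and LTF had their highest TPM in all 3 groups, and TFRC, SLC40A1, IREB2 and NCOA4 had their lowest. Among all genes, 6.74% were highest and 22.4% were lowest in replicate 3 of every group.

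**Figure D4:**
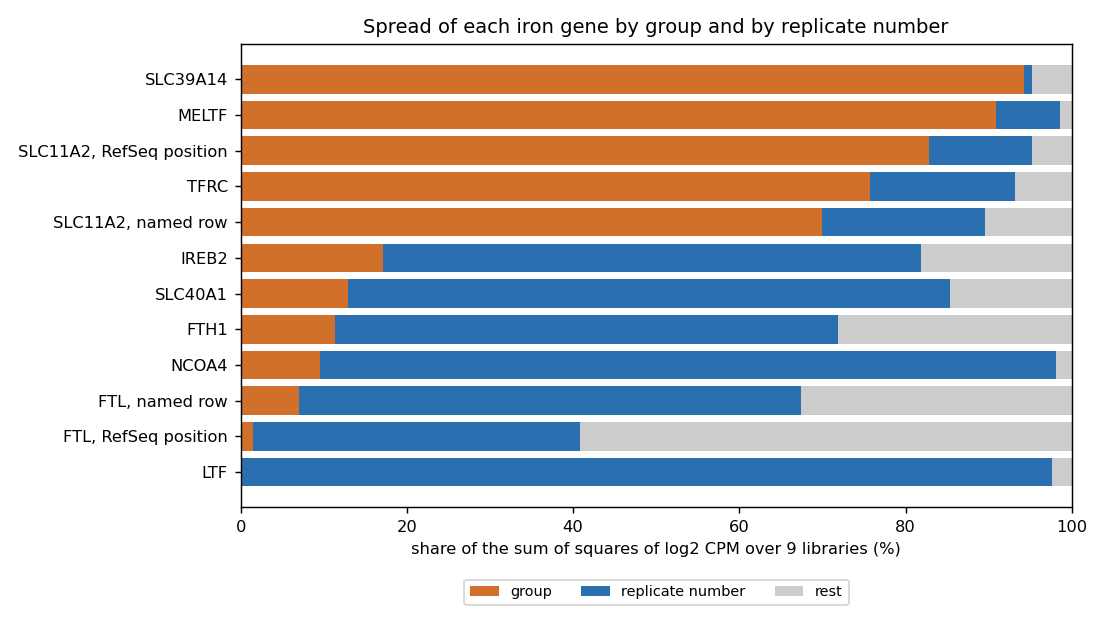
Share of the sum of squares of log2 CPM over 9 libraries (x axis, percent) that lies between the 3 groups (orange), between the 3 replicate numbers (blue) and in the rest (grey), for each gene (y axis). SLC39A14 and MELTF vary mostly by group (94.2% and 90.8%), and LTF and NCOA4 mostly by replicate number (97.6% and 88.6%).

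Levels can be compared between genes on the TPM scale, which is per length. In each group FTH1 was highest, with 63383 ± 49122 TPM (SD, n = 3) in CYST and 78619 ± 20318 TPM (SD, n = 3) in MAT, followed by the FTL row at the RefSeq position, with 8617 ± 1181 and 8636 ± 449.4 TPM (SD, n = 3), and neither overlapped with the next gene. In CYST, the rows named SLC11A2 and FTL, TFRC, LTF, SLC40A1 and NCOA4 followed with mean TPM from 257.5 to 124.9, and neighbours in this order overlapped. MELTF was the lowest in CYST, at 4.93 ± 0.843 TPM (SD, n = 3), where its range overlapped with that of IREB2, the next above it. In MAT the order had changed at the lower end. MELTF stood above both SLC11A2 rows, overlapping with the one that carries the symbol, and SLC39A14 was the lowest, at 2.33 ± 0.404 TPM (SD, n = 3), below the range of IREB2.

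Whether collagen I altered these genes was examined in MAT + COL compared with MAT. None of the 10 genes had an adjusted p under 0.05 in edgeR, and the adjusted p was 1 for each without the block and between 0.955 and 0.991 with it. Over all 12470 genes tested, 0% were called, 51 had an unadjusted p under 0.05 without the block and 618 with it, and DESeq2 also called 0. In percent these were 0.409% and 4.96%. None of the 10 genes had an unadjusted p under 0.05 without the block, and with it 3 had, namely SLC40A1 (Log2FC 0.42, standard error 0.15), MELTF (-0.39, standard error 0.15) and FTH1 (-0.29, standard error 0.13). In the same comparison the Log2FC of all 7 stromal markers was above 0 (median 0.34, 5 with an unadjusted p under 0.05 with the block) and that of all 6 epithelial markers below 0 (median -0.15, 2 with such a p), and their part in the values of the 10 genes was not tested. Without the block, the largest Log2FC were those of the row named SLC11A2, at 0.68 (standard error 0.77), SLC39A14, at 0.55 (standard error 0.34), and SLC40A1, at 0.45 (standard error 0.37).

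SLC39A14 alone among the 10 genes had MAT + COL and MAT libraries that did not overlap in TPM, where 3.57% of all genes tested had no overlap. SLC39A14, SLC40A1 and NCOA4 were at a higher level with collagen I in 3 of 3 same-numbered pairs. The share of all genes with such agreement is not given, so nothing is read from it. In log2 CPM, SLC39A14 was higher by 0.47, 0.79 and 0.38, SLC40A1 by 0.89, 0.12 and 0.27, and NCOA4 by 0.14, 0.03 and 0.10. MELTF was different by -0.63, -0.56 and 0.00 in the same pairs, with a Log2FC of -0.32 (standard error 0.42). For the row named SLC11A2, the Log2FC was -0.53 without MAT + COL replicate 1 and 1.39 without MAT replicate 1. For LTF it was 1.34 without MAT replicate 3 and -1.45 without MAT + COL replicate 3.

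MAT + COL was also compared with CYST. The libraries of both groups serve in the comparisons above, so the values are set side by side and give no second, separate support. MELTF rose, with a Log2FC of 3.05 (standard error 0.42), and SLC39A14 fell, with a Log2FC of -1.73 (standard error 0.27), where 0.672% of 12509 tested genes were called higher and 0.815% lower, or 1.49% in all. In TPM, MAT + COL and CYST did not overlap for 4 of the 10 genes and for 24.7% of all genes, and an unadjusted p under 0.05 was found for 4 and for 21.7%. TFRC, at -0.95 (standard error 0.29), and the row named SLC11A2, at -2.04 (standard error 0.68), passed in edgeR only with the replicate block, which gave -0.99 (standard error 0.19) and -2.54 (standard error 0.50), where 2.68% of all genes were called higher and 2.58% lower, or 5.26% in all. DESeq2 without a block also called TFRC and the row named SLC11A2, 4 of the 10 genes in all, and 12.2% of all genes. The row of SLC11A2 at the RefSeq position behaved in the same way, with -1.11 (standard error 0.27) without the block and -1.16 (standard error 0.17) with it, and edgeR called it only with the block. FTH1 had a Log2FC of -0.05 (standard error 0.59). With 1 library left out at a time, it ranged from -0.39 (without CYST replicate 2) to 1.01 (without CYST replicate 3).

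MELTF kept its call without MAT + COL replicate 1 or MAT + COL replicate 3 and lost it in the other 4 fits with 1 library left out, where SLC39A14 lost it in all 6. The Log2FC of MELTF then ranged from 2.58 to 3.37 and that of SLC39A14 from -1.86 to -1.56. For the row named SLC11A2 the Log2FC was -3.24 without MAT + COL replicate 1.

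**Figure D5:**
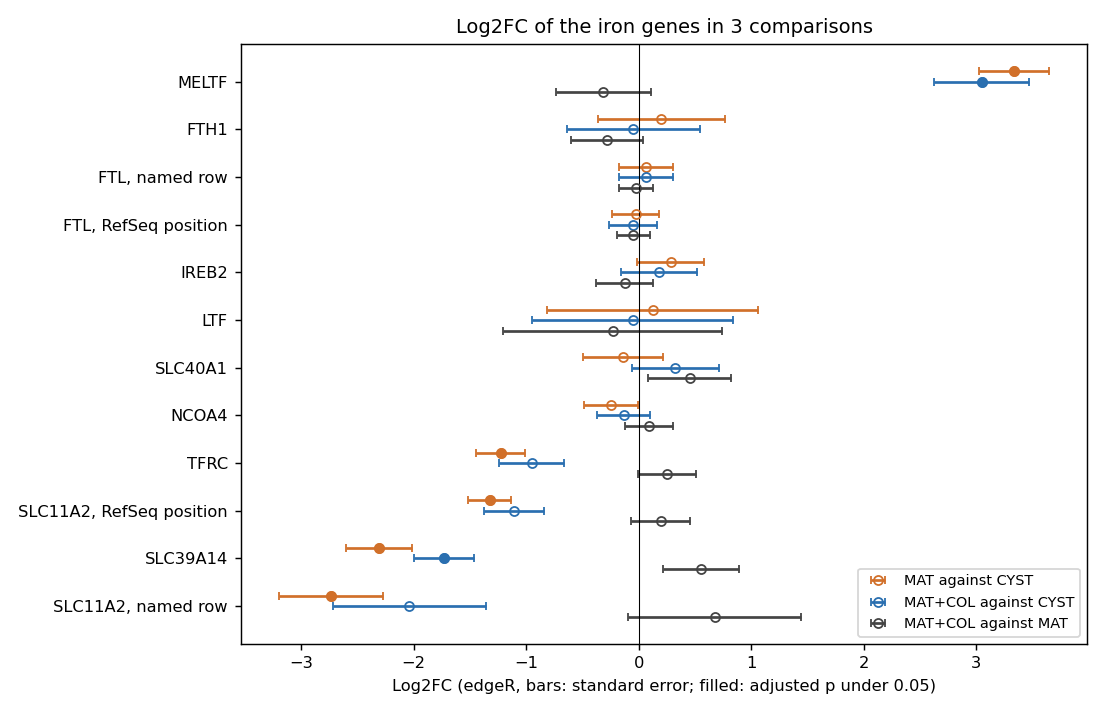
Log2FC from edgeR (x axis, bars are the standard error) of the 10 genes and of the 2 rows at RefSeq positions (y axis) in the 3 comparisons, which share libraries. Filled points had an adjusted p under 0.05 without the replicate block. MELTF lies near 3 in both comparisons with CYST, and FTH1, both FTL rows, IREB2, LTF, SLC40A1 and NCOA4 lie within 0.5 of 0 throughout.

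Another 81 genes of iron, heme and ferroptosis pathways were examined in 7 lists, of which 75 could be tested in MAT against CYST. The lists were also chosen with earlier results of these data known, so their p-values and calls are a description. FTMT, which encodes mitochondrial ferritin, and HAMP, which encodes the hormone hepcidin, were at 0 counts in all libraries. None of the 75 had an adjusted p under 0.05 in edgeR without the block, where 1.79% of all genes did, while 20 had an unadjusted p under 0.05, as had 20.7% of all genes, and DESeq2 called 13. With the replicate block 11 were called, 5 higher and 6 lower in MAT. Of all genes, 10.6% were called with the block, 4.9% higher and 5.67% lower, also to be read beside each list below. The median Log2FC of the 75 was -0.02, against 0.01 over all genes tested.

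With the block, 5.67% of all genes tested were called lower and 4.9% higher. Of the 15 tested genes for mitochondrial iron and iron-sulfur clusters, 3 fell with the block and none rose. Among them ABCB8, a transporter of the inner mitochondrial membrane, had a Log2FC of -0.72 in the blocked fit, where its edgeR adjusted p was 0.0478.

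Of the 11 tested genes for uptake and reduction, 1 rose with the block, namely STEAP4, a metalloreductase, whose Log2FC was 1.25 (standard error 0.36) at an edgeR adjusted p of 0.105, or 0.0352 in the blocked fit. STEAP3, the ferrireductase of endosomes, had 0.37 (standard error 0.16, adjusted p = 0.244). TF itself, which encodes transferrin, was low in every group, at 6.08 ± 6.27 TPM (SD, n = 3) in CYST and 6.24 ± 6.39 TPM (SD, n = 3) in MAT. Of the 9 tested genes for iron sensing and ferritin turnover, 1 rose with the block. This was TMPRSS6, a membrane protease that lowers hepcidin signaling in liver, whose Log2FC was 1.45 (standard error 0.45) at an edgeR adjusted p of 0.124, or 0.0212 in the blocked fit. PCBP1, an iron chaperone that loads ferritin, had 0.50 (standard error 0.18, adjusted p = 0.159).

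None of the 8 heme synthesis genes was called in either fit. ALAD, an enzyme of that pathway, had a Log2FC of -0.68 at an edgeR adjusted p of 0.405, or 0.0520 in the blocked fit. Of the 9 tested genes for heme transport and breakdown, 1 rose with the block, the endocytic receptor LRP1, which also takes up many ligands other than heme. Its Log2FC was 1.23 (standard error 0.30) at an edgeR adjusted p of 0.0732, or 0.0177 in the blocked fit. SLC46A1, a carrier of folate and heme, had 1.36 (standard error 0.45, adjusted p = 0.142). None of the 3 tested genes for export and oxidation was called. Among them CP was barely detected, with at most 61 counts in any library, and PROM2 had a Log2FC of 1.12 (standard error 0.67, adjusted p = 0.392).

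Ferroptosis is a form of cell death that depends on iron and on the peroxidation of membrane lipids. Of 20 listed genes outside iron handling, 2 rose and 3 fell in MAT with the block. The block called 4.9% of all genes tested higher and 5.67% lower. ACSL4 encodes an enzyme that activates polyunsaturated fatty acids for later use in lipids. It had 357.0 ± 88.4 TPM (SD, n = 3) in CYST, 137.8 ± 41.8 TPM (SD, n = 3) in MAT and 150.4 ± 31.5 TPM (SD, n = 3) in MAT + COL. Its Log2FC in MAT over CYST was -1.38 (standard error 0.30) at an edgeR adjusted p of 0.0616, or 0.00916 in the blocked fit. SLC3A2 and LPCAT3 fell with the block, by 0.81 and 0.74 on the log2 scale, and SAT1 and ACSL1 rose by 0.88 and 0.70. ACSL1 and LPCAT3 work in lipid metabolism, SLC3A2 is the heavy chain of amino acid exchangers and SAT1 breaks down polyamines.

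In MAT + COL compared with CYST, 2 of the 75 listed genes were called without the block, both lower, and 6 with it, 3 higher and 3 lower, where 1.49% and 5.26% of all genes were called. The first 2 were ACSL4, with a Log2FC of -1.33 (adjusted p = 0.0476 from edgeR), and SLC3A2, with -0.93 (adjusted p = 0.0392). Both were also lower with the block, and LRP1, TMPRSS6 and ACSL1 were higher, with a Log2FC of 1.46, 1.49 and 0.82. Between MAT + COL and MAT, 0 of the 74 tested genes were called in edgeR with or without the block.

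The genes whose log2 CPM followed MELTF most closely over the 9 libraries, among 12821 others, were S100A4, BIN1, CYB5R1, MAL and CAST, with Pearson's r from 0.97 to 0.98. MAL, a protein of apical membrane transport, had 0.630 to 1.59 TPM in CYST and 15.8 to 41.7 TPM in the EGF-treated libraries. Those most like FTH1 were UNC93A, EFNA1, TMEM53, SEMA4B and PRSS8, with r from 0.95 to 0.96. EFNA1, which encodes the membrane ligand ephrin-A1, had 137.4, 124.5 and 638.2 TPM in CYST, so that CYST replicate 3 stood apart there as it did for FTH1. The 9 libraries share groups and replicate numbers, and r is given only as a measure of likeness.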

How the data were processed

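RNA from 9 cultures was made into SMART-Seq HT PLUS libraries. Reads were trimmed and aligned to ARS-UCD2.0 in CLC Genomics Workbench by the authors, who deposited read counts per gene, without normalization, and TPM values. Annotation release, strand setting and handling of multi-mapped reads are not given in the sources used here. Total counts per library were 6568968 to 17948600. RefSeq positions came from a table of the same build. It held no sequences.

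Counts were filtered with filterByExpr (minimum count 10), normalized by TMM and tested in edgeR 4.0.16 (R 4.3.3) (glmQLFit, glmQLFTest) using the 6 libraries that a comparison involves, with Benjamini-Hochberg adjustment over all genes tested. A gene was called at an adjusted p under 0.05. Log2 CPM used a prior count of 2. After subtracting group means, same-numbered libraries correlated at over 0.1 for every pair in all comparisons (0.29 to 0.67), so the numbers were taken to pair the samples and the block is given where it changed a call. Libraries with different numbers correlated at 0.102 at most, which is also just over 0.1. Deviations from a group mean sum to 0, so positive values for same-numbered pairs push the other values down. The low values for different numbers are therefore no separate support for the pairing. The paper describes the clusters of MAT and MAT + COL samples as individuals, but does not give the animal of each library. Where samples of a group are not from separate animals, p-values measure only technical spread. The test without the block was checked on simulated data with 200 changed genes and no replicate effect. The blocked fit was not checked in this way. Alternatives were RLE factors, total counts, no filter, DESeq2 1.42.0, the replicate block, 9 libraries in 1 fit, limma 3.58.1 on log2(TPM + 1), and leaving out each library. The rows at RefSeq positions were an alternative chosen after seeing the data.

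The genes, lists and tests were chosen with earlier results of these data known. The text names the 10 genes, the listed genes that passed the threshold and the 2 with the smallest p per list in MAT against CYST, and the 5 genes most like FTH1 and MELTF. A few genes that this rule would name are not reported here. HBA and PIFO, 2 marker symbols, were not found. Figures were drawn with matplotlib 3.10.9.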

Additional observations from a re-analysis of the deposited data

How the results depend on the processing

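Of the 10 genes, 4 were called in MAT against CYST, and 3 or 4 under every alternative that kept all 6 libraries. Leaving out 1 library gave 0 to 3. In MAT + COL against CYST, 2 were called, 4 with DESeq2 or the replicate block, 1 with limma on log2(TPM + 1), and 0 or 1 without 1 library. Of the listed iron genes, 0 were called in MAT against CYST, 1 without the filter or with limma, 13 with DESeq2, 11 with the replicate block, 7 with all 9 libraries in the fit, and 0 or 1 without 1 library. In MAT + COL against CYST, 2 were called, 0 with total counts only, 11 with DESeq2, 6 with the replicate block, 7 with all 9 libraries, 1 with limma, and 0 or 1 without 1 library. Over all genes, 1.79% were called in MAT against CYST, and 10.6% with DESeq2 or the replicate block. In MAT + COL against CYST, 1.49% of all genes were called, 12.2% with DESeq2 and 5.26% with the block. Shares of all genes under the other alternatives are not given, so nothing is read from those counts. Between MAT + COL and MAT every alternative gave 0 for the 10 genes and for the listed iron genes. The cause of these changes in the counts was not tested. Leaving out 1 library also leaves fewer samples in the fit. As a share of all TPM, FTH1 took 6.34% in CYST, 7.86% in MAT and 6.80% in MAT + COL. Without 1 library its share of counts ranged from 1.58% to 3.81%, from 3.02% to 3.93% and from 2.76% to 3.47%. Of 366 Log2FC values of the 10 genes under the alternatives, 358 moved by less than the spread between replicates, and no called gene changed sign. The replicate block changed no call of the 10 genes other than those of TFRC and SLC11A2 (both rows) in MAT + COL against CYST. Depth limits SLC39A14 most, with 30 counts in MAT replicate 1.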
